A study of Mus musculus with 64 samples.

Results

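The genes described here are 5 members of the T helper 17 (Th17) program, Il17a, Il17f, Rora, Ahr and Il23r. They were picked by symbol, with earlier results of these data known, and they are 5 of the 23134 genes in the deposited RNA-seq time course. The series measured total RNA of splenic CD4 T cells from C57BL/6J mice that carry the tamoxifen-inducible, T cell-expressed recombinase Cd4-Cre-ERt2. Cells with the recombinase alone were the control (WT). The other genotypes added floxed Rc3h1 and Rc3h2, which encode Roquin-1 and Roquin-2 (DKO), floxed Zc3h12a, which encodes Regnase-1 (KO), or all 3 floxed genes (TKO). All cells, the WT cells included, were treated with 4'-OH-tamoxifen, activated through CD3 and CD28 under Th1 conditions for 40 h and kept for a further 2 days in medium with IL-2. They were then left untreated (0 h) or restimulated with antibodies to CD3 and CD28 for 1, 2 or 4 h, giving 16 groups of 4 libraries. No group was cultured under Th17-polarizing conditions, and the labels do not say whether the 4 libraries of a group come from separate mice, so that the p-values speak only for the spread among the libraries at hand.

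The Th17 program is the set of genes that lets a CD4 T cell make the cytokines IL-17A and IL-17F, which act on epithelial and stromal cells and recruit neutrophils. The nuclear receptor RORα (Rora) is one of its transcription factors, the ligand-activated aryl hydrocarbon receptor (Ahr) adds to it and drives IL-22, and the IL-23 receptor subunit (Il23r) receives the signal that maintains it. Roquin-1, Roquin-2 and Regnase-1 are RNA-binding proteins that recognise stem loops in 3' untranslated regions (3'UTRs) and shorten the life of the bound mRNAs. Regnase-1 cuts the RNA, and Roquin recruits the deadenylation machinery. Il17a and Il17f are neighbours and the program's secreted products, so their promoters are printed first, followed by the short 3'UTR matches of the members.

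Il17a (ENSMUSG00000025929) lies at chr1:20730905-20734496 on the plus strand of GRCm38, and Il17f (ENSMUSG00000041872) at chr1:20777146-20790617 on the minus strand, 42.65 kb away, with no other tested gene between them. The RefSeq promoters below run from 250 bases before to 50 after the start and are given 5' to 3' on the gene's strand, from build GRCm38.p6. The Il17a window is chr1:20730655-20730954 (plus) and the Il17f window chr1:20784221-20784520 (minus). The Il17f start in RefSeq lies inside the longer gene span of the GENCODE annotation. Capitals mark matches, on either strand, to the AP-1 motif TGANTCA, the NFAT core GGAAA, the STAT motif TTCNNNGAA, the ROR half-site AGGTCA, the AHR core GCGTG or the TATA box TATAAA.
Il17a promoter: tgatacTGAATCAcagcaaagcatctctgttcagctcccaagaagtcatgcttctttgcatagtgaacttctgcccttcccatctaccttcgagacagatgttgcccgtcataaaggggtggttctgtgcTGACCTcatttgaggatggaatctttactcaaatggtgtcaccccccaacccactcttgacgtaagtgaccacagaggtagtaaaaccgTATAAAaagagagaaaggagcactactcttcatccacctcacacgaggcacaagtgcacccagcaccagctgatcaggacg
Il17f promoter: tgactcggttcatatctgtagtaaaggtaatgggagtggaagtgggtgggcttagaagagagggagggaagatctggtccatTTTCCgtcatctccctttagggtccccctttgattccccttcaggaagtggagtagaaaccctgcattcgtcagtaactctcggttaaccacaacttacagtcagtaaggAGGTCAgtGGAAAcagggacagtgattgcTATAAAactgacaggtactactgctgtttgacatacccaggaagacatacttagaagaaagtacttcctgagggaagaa
Each window held 1 ROR half-site, a sequence that 16.3% of the 32851 promoters of the same length held. It began 120 bases before the start in Il17a, on the opposite strand (shown as TGACCT), and 58 bases before it in Il17f. Each also held 1 TATA box (13.6% of promoters), at 31 and 29 bases before the start. The Il17a window held 1 AP-1 match (7.81% of promoters) and no NFAT core. The Il17f window held 2 NFAT cores (61.3% of promoters), of which the minus-strand one reads TTTCC, and no AP-1 match. Neither held the STAT motif (8.3% of promoters) or the AHR core (32.4%). The motifs TGANTCA and TTCNNNGAA read the same on both strands, no match printed here overlaps another, and a match is a description of letters, not a shown site.

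The 3'UTRs were searched for a short stem of at least 5 Watson-Crick pairs closed by a 3-base loop of pyrimidine, purine and pyrimidine, the loop form known for targets of Regnase-1 and Roquin. The loop is in capitals and the sites are written on the gene's strand.
Il17f, chr1:20777155-20777167 (minus): taaaaTATtttta
Rora, chr9:69383488-69383500 (plus): ataagCACcttat
Rora, chr9:69386896-69386910 (plus): cagttcTGTgaactg
Ahr, chr12:35498066-35498078 (minus): tatgcCATgcata
No such stem loop was found in the 3'UTR of Il17a (637 bases) or Il23r (433 bases). Among 3'UTRs of like length (within 20%), at least 1 match was present in 13.3% for Il17f (621 bases), 74.2% for Rora (9285 bases) and 39.6% for Ahr (2715 bases). The AU-rich heptamer TATTTAT, an element of many short-lived cytokine mRNAs, is shown next in the 2 cytokine genes, in capitals with 4 bases on each side.
Il17a, chr1:20734198-20734212 (plus): cctaTATTTATatga
Il17a, chr1:20734211-20734225 (plus): gagcTATTTATgaat
Il17a, chr1:20734223-20734237 (plus): aatcTATTTATtttt
Il17f, chr1:20777250-20777264 (minus): tataTATTTATgttg
Il17f, chr1:20777221-20777235 (minus): cataTATTTATgacc
Il17a held 3 heptamers, a number reached by 1.2% of 3'UTRs of like length, and Il17f held 2, reached by 4.14%. Rora held 5 (8.33% of like length), Ahr 1 (47.8%) and Il23r none. Whether any of these letters is bound in these cells was not measured.

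The libraries held 5369858 to 11666495 reads recovered from the deposited normalized values (median 7720333). Values below are scaled reads, which are these reads rescaled to 1 common depth, and differences are log2 of scaled reads plus 1 with their standard error (SE). A difference is called where its limma adjusted p (Benjamini-Hochberg, over the 16140 genes kept in that comparison) was under 0.05. Statements that library ranges overlap or are apart are descriptions and not support. The share of all genes with ranges apart was not counted. All 5 of 5 members passed the filter on low values, Il17a and Il17f through their restimulated groups alone. Whole-gene reads of the targeted genes check the labels only in part, since floxed exons are not named in the labels. The median of Rc3h1 was 968 in WT and 543 in DKO, that of Rc3h2 591 and 711, and that of Zc3h12a 314 in WT and 268 in KO, and the libraries of all 3 genes overlapped between these genotypes. The cells carried the T cell and Th1 markers of their label: Cd4 stood between 558.5 and 2293 scaled reads and Tbx21 between 75.7 and 2454 in all 64 libraries. Ncr1, which defines natural killer cells, was at 0 in 41 libraries and the myeloid gene Lyz2 in 53, while the immunoglobulin gene Ighm had a median of 914. The scaling moved the balance of calls over all genes: for KO minus WT at 4 h, 21.8% of genes were called higher and 11.6% lower here, against 3.6% and 14.7% with the deposited scaling, which shifts the median of all genes by -0.273. No called difference of a member changed its direction under any scaling.

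The libraries fell into 4 sets (A to D) that recur across groups, told from 9507 other autosomal genes. Libraries of the same set deviated together across genotypes (r of 0.0692 to 0.807, median 0.585, against a median of -0.247 for other pairs), and 43 of 48 best matches were to the same set, although the next best assignment scored nearly as well (13.41 against 13.71). The sets come from the data and not from the labels, so they name libraries here and enter no test outside the closing section. By Xist, a transcript of female cells, 2 libraries per time were high and 2 low in WT and DKO, and 1 high and 3 low in KO and TKO. Set C was Xist-high in WT and DKO and Xist-low in KO and TKO, so it joins libraries of unlike sex pattern. The sex pattern is thus not balanced between WT and KO or TKO. In bulk RNA, fewer cells that make a transcript and less of it in each cell cannot be told apart.

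Il17a and Il17f transcripts were all but absent before restimulation and present in each of the 48 libraries after it. In WT cells Il17a was at 0, 1.0, 0 and 0 scaled reads in sets A, B, C and D at 0 h. After 1 h it was at 7.8, 11.8, 12.5 and 5.8, after 2 h at 8.4, 16.5, 27.5 and 9.5, and after 4 h at 4.9, 13.8, 19.4 and 8.4. Its 4 libraries at 0 h together held 1 read, so every restimulated library stood above all untreated ones. In DKO cells all 4 libraries held 0 reads at 0 h, a count that allows up to 3 reads over the group. They then held 12.9, 13.2, 24.4 and 10.2 scaled reads after 1 h, 24.0, 31.8, 50.1 and 39.7 after 2 h, and 10.9, 25.6, 38.8 and 20.5 after 4 h. Set C was the highest of the 4 at each of these times.

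In KO cells Il17a stood at 0.9, 0, 0 and 0 at 0 h. It was at 5.7, 3.2, 54.7 and 9.3 after 1 h, at 24.4, 12.6, 146.7 and 36.2 after 2 h, and at 11.6, 8.4, 127.2 and 25.1 after 4 h. The set C library held most of the KO reads at each restimulated time, while the other 3 libraries ranged from 3.2 to 36.2. In TKO cells the values were 0, 3.0, 0 and 0 at 0 h, 6.3, 15.1, 6.2 and 12.3 after 1 h, 13.3, 37.9, 10.3 and 23.9 after 2 h, and 20.1, 27.1, 17 and 20.1 after 4 h. Here set B, not set C, was the highest at all 4 times.

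Il17f, the second cytokine of the pair, was likewise at or near 0 before restimulation. In WT cells it stood at 0, 0, 0 and 0.9 at 0 h, 7.8, 5.4, 9.4 and 18.5 after 1 h, 89.2, 57.7, 73.3 and 219.0 after 2 h, and 47.2, 37.2, 42.9 and 102.7 after 4 h. In DKO cells it was at 0 in all 4 libraries at 0 h, at 22.0, 21, 14 and 22.6 after 1 h, at 52.2, 80.1, 72.9 and 224.8 after 2 h, and at 22.7, 42.3, 54.4 and 75.6 after 4 h. WT and DKO libraries overlapped at 1, 2 and 4 h, with set D the highest in both genotypes at all 3 restimulated times. In KO cells it was at 0, 0, 1.8 and 0.9 at 0 h, 29.7, 33.2, 48.2 and 66.4 after 1 h, 232.6, 291.7, 317.4 and 1308.2 after 2 h, and 126.2, 204.8, 350.9 and 480.5 after 4 h. Each KO library stood above all 4 WT libraries at 1, 2 and 4 h. In TKO cells it was at 0, 1.0, 0 and 2.5 at 0 h, 39.1, 34.8, 18.6 and 98.5 after 1 h, 159.4, 179.9, 55.8 and 743.8 after 2 h, and 76.4, 110.3, 79.2 and 263.0 after 4 h, below the KO library of the same set at 2 and 4 h.

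**Figure D1:**
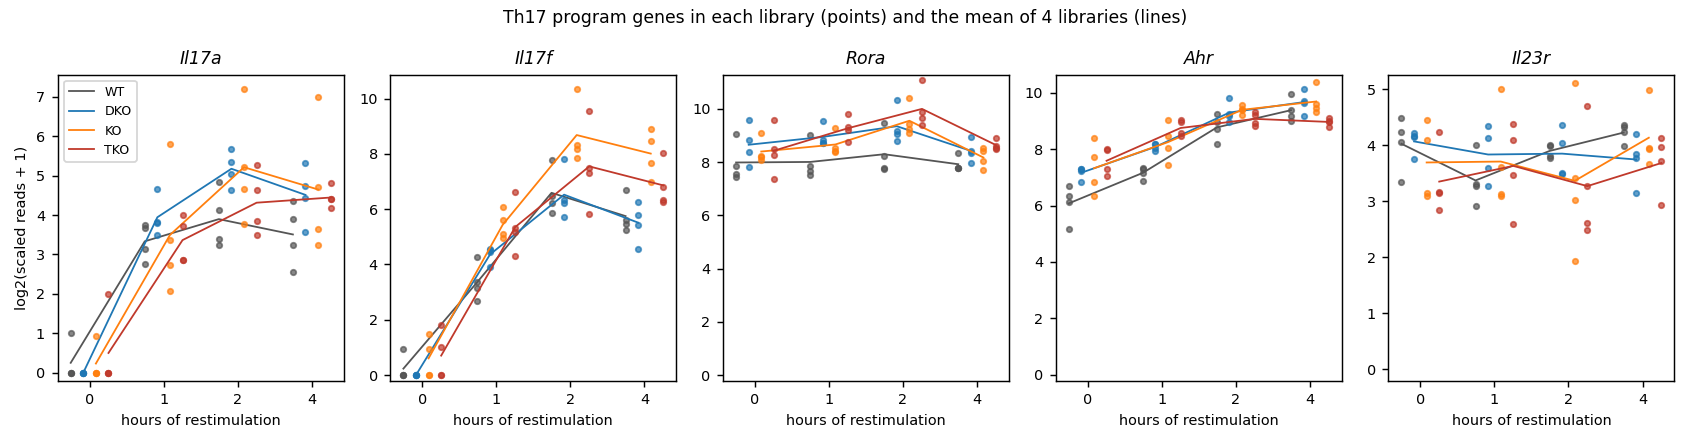
Log2 of scaled reads plus 1 of the 5 genes against hours of restimulation (evenly spaced), 1 point per library, coloured by genotype, with lines through the group means of 4 libraries. Il17a and Il17f rise from about 0 in all 4 genotypes, Il17f is highest in KO cells at 2 h (mean of 537 scaled reads), Ahr starts lowest in WT cells (71.2), and Il23r stays between 2.8 and 33.3 scaled reads.

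Rora (ENSMUSG00000032238, chr9:68653786-69388246, plus strand) encodes the nuclear receptor RORα. Unlike the cytokines it was well expressed without restimulation. WT libraries held 188.7, 231.5, 173.6 and 531.5 scaled reads at 0 h, 202.9, 227.2, 180.1 and 513.6 after 1 h, 297.0, 215.5, 211.9 and 703.4 after 2 h, and 217.2, 219.1, 216.1 and 326.9 after 4 h. TKO libraries held 360.2, 305.6, 163.1 and 765.5 at 0 h, 589.5, 635.9, 434.2 and 882.7 after 1 h, 928.7, 798.6, 664.1 and 2189.3 after 2 h, and 391.8, 367.7, 360.9 and 476.6 after 4 h. Set D was the highest in each of these 8 groups, and after 1 h and 2 h the set D library of WT overlapped the range of TKO. DKO libraries held 334.6, 225.3, 450.0 and 757.1 at 0 h, 450.2, 419.5, 415.5 and 741.9 after 1 h, 571.2, 446.3, 534.8 and 1301.0 after 2 h, and 343.2, 250.1, 322.1 and 490.5 after 4 h. KO libraries held 271.5, 291.4, 297.3 and 537.5 at 0 h, 343.6, 371.0, 330.6 and 626.4 after 1 h, 544.5, 609.8, 692.2 and 1365.7 after 2 h, and 258.7, 209.8, 337.8 and 369.3 after 4 h. In all 4 genotypes, WT included, the 2 h mean was the highest of the 4 times. A gene on the opposite strand, Gm15511, overlaps Rora, and it held 86 reads in all against 29538 of Rora.

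Ahr (ENSMUSG00000019256, chr12:35497974-35535038, minus strand) encodes a receptor that enters the nucleus on binding a ligand and there pairs with ARNT. WT libraries held 101.6, 80.2, 35.0 and 68.0 scaled reads at 0 h, 156.1, 141.0, 115.9 and 158.1 after 1 h, 417.4, 287.3, 598.9 and 497.1 after 2 h, and 577.8, 507.3, 991.5 and 666.9 after 4 h, a climb that went on to the last time measured. TKO libraries held 258.2, 247.9, 132.7 and 156.6 at 0 h, 516.3, 379.1, 348.6 and 493.7 after 1 h, 489.4, 454.0, 592.4 and 627.8 after 2 h, and 497.3, 513.8, 546.5 and 438.3 after 4 h. TKO cells began above all WT libraries, were above them again after 1 h, and overlapped them at 2 and 4 h. DKO libraries held 156.7, 156.0, 149.1 and 112.2 at 0 h, 292.1, 259.4, 286.3 and 242.0 after 1 h, 600.5, 492.1, 900.2 and 579.3 after 2 h, and 840.1, 790.7, 1108.6 and 582.4 after 4 h. KO libraries held 210.2, 332.5, 80.2 and 112.8 at 0 h, 355.1, 524.4, 173.1 and 259.9 after 1 h, 660.3, 688.0, 756.2 and 586.5 after 2 h, and 772.4, 632.0, 1331.0 and 702.1 after 4 h. Relative to its mean the KO spread was widest before restimulation, where sets A and B stood above sets C and D.

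Il23r (ENSMUSG00000049093, chr6:67422932-67491855, minus strand) encodes the subunit that, with IL12RB1, forms the IL-23 receptor. It was low in every library. WT libraries held 15.6, 21.3, 9.1 and 17.7 scaled reads at 0 h, 8.9, 6.5, 8.6 and 15 after 1 h, 15.1, 13, 14.9 and 12.7 after 2 h, and 17.7, 19.1, 19.4 and 14.9 after 4 h. DKO libraries ranged from 7.9 to 19.4 and TKO libraries from 4.6 to 25.0 over the 4 times, without separating from WT at any of them. In KO cells set C held 20.7, 31.2, 33.3 and 30.8 at 0, 1, 2 and 4 h, while the other KO libraries ranged from 2.8 to 16.1. The KO library that was highest in Il17a after restimulation was thus also the highest in Il23r.

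Divided by exon length, so that the genes can be compared, the group means ran from 0 to 46.9 scaled reads per kb for Il17a, 0 to 266 for Il17f, 18.7 to 87.6 for Rora, 11.6 to 139 for Ahr and 3.92 to 7.15 for Il23r. In the order of the 16 group means, neighbours were rarely separated by more than their spread. The library ranges of neighbours failed to overlap in 1 of 15 places for Il17a, in 2 of 15 for Il17f, in 1 of 15 for Ahr and in none of 15 for Rora or Il23r. For Il17f the 2 breaks lay between KO at 1 h (mean 44.4) and DKO at 1 h (19.9), and between WT at 1 h (10.3) and TKO at 0 h (0.880). Its order began with KO at 2 h (537 ± 515, SD, n = 4), KO at 4 h (291 ± 157), TKO at 2 h (285 ± 311) and TKO at 4 h (132 ± 88.5). For Ahr the break set WT at 0 h (71.2 ± 27.9) apart from its neighbour, WT at 1 h (143 ± 19.5), though not from KO at 0 h, and KO at 4 h was the highest (859 ± 320). Rora ran from 245 ± 54.7 in WT at 4 h to 1145 in TKO at 2 h, and Il23r from 9.75 ± 3.67 in WT at 1 h to 17.8 ± 2.05 in WT at 4 h.

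Restimulation raised both cytokine genes and Ahr in every genotype and at every time, raised Rora in KO and TKO cells at 2 h, and left Il23r without a call. Of the 60 tests of a restimulated group against 0 h of the same genotype, 38 were called, all higher. Both cytokines and Ahr account for 36 of these. The 24 calls of Il17a and Il17f are a description and not support, since these genes passed the filter only through their restimulated groups. Of all genes, at 1, 2 and 4 h, 18.7, 26.5 and 24.7% were called higher in WT, 19.3, 29.6 and 28.3% in DKO, 18.9, 30.1 and 33.0% in KO, and 13.1, 24.4 and 27.2% in TKO. With the deposited scaling these shares ran from 9.49 to 27.7%.

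For Il17f the fitted differences at 1, 2 and 4 h were 3.14, 6.36 and 5.52 in WT, 4.36, 6.53 and 5.51 in DKO, 4.82, 8.07 and 7.40 in KO, and 4.65, 6.84 and 6.16 in TKO, each with an SE of about 0.56 and no overlap with 0 h. Because 0 h was near 0, the fold is better given from the reads. At 2 h it was 426-fold in WT, with a 95% counting interval of 76 to 1.69e+04 that rests on 1 read at 0 h, 796-fold in KO (272 to 3.86e+03), 356-fold in TKO (121 to 1.73e+03) and at least 156-fold in DKO, where 0 h had no read and 3 reads over the group were taken as the floor. Set D held much of these reads (1229 of 1905 in KO, 654 of 1025 in TKO), and without its 2 h library the folds were 290 in WT, 391 in KO, 170 in TKO and at least 96.8 in DKO. For Il17a the fitted differences were 3.08, 3.65 and 3.26 in WT, 3.94, 5.18 and 4.51 in DKO, 3.26, 4.97 and 4.41 in KO, and 2.87, 3.81 and 3.94 in TKO (SE about 0.60). The adjusted p was at most 0.000218, and the ranges did not overlap. The 1 h call of Il17f in WT was lost with voom (adjusted p = 0.177), as was that in TKO (0.0569). By reads, the 2 h fold was 57 in WT (9.82 to 2.29e+03), 222 in KO (39.3 to 8.81e+03), 27.1 in TKO (8.93 to 134) and at least 53 in DKO. In KO, 110 of the 177 reads came from set C, and without that library the fold was 108. The folds without 1 library were chosen after seeing the data. Intervals cover counting error only.

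For Ahr the differences at 1, 2 and 4 h were 1.08, 2.69 and 3.30 in WT, 0.92, 2.13 and 2.50 in DKO, 0.93, 2.07 and 2.37 in KO, and 1.16, 1.48 and 1.38 in TKO (SE 0.30). The ranges were apart in 11 of the 12, with KO at 1 h (adjusted p = 0.0158) the exception. That call was lost without the KO library at 0 h of set C (0.60, adjusted p = 0.134) or set D (0.76, 0.0802), or the KO library at 1 h of set B (0.66, 0.113), with the deposited (0.0519) or upper-quartile (0.0772) scaling, and with only the groups compared in the fit (0.185). The DKO call at 1 h (adjusted p = 0.0158) was lost without the DKO library at 0 h of set D (0.80, 0.0588) and with the deposited (0.0588) or upper-quartile (0.0694) scaling. Rora was higher than at 0 h in KO cells at 2 h by 1.16 ± 0.41 (SE, adjusted p = 0.0144) and in TKO cells at 2 h by 1.57 (adjusted p = 0.00123). The KO call was lost without the KO library at 2 h of set D (0.87, adjusted p = 0.0851) and with the deposited (0.0798) or upper-quartile scaling. For Il23r none of the 12 tests was called by limma, and none had an unadjusted p under 0.05.

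**Figure D2:**
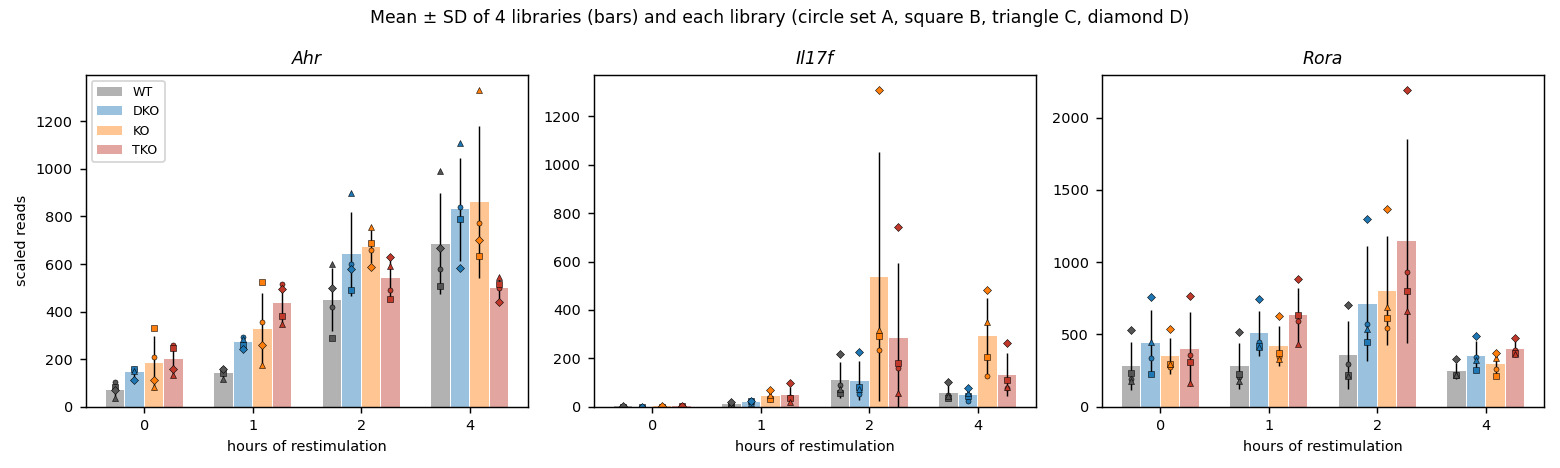
Scaled reads of Ahr, Il17f and Rora on linear axes from 0 by hour of restimulation, with bars for the mean of 4 libraries and their SD, coloured by genotype, and 1 point per library whose shape gives its set A to D. The Il17f means of 537 and 291 in KO cells stand above the 110 and 57.5 of WT cells at 2 and 4 h, and the Ahr means of TKO cells change little between 1 and 4 h (434, 541 and 499).

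Compared with WT at the same hour, the members separated by genotype and by time. Of the 60 tests, 12 were called, all higher in the knockout cells: Ahr at 0 and 1 h in all 3 genotypes, Il17f in KO at 1, 2 and 4 h and in TKO at 1 h, and Rora in TKO at 1 and 2 h. All 12 had the same sign in each of the 4 library sets, which is a description and not support. The sets come from the data, and where ranges were apart any pairing of libraries gives the same sign. DKO, KO and TKO share the WT libraries, so these calls are not independent of each other.

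Ahr before restimulation was above WT by 1.09 ± 0.30 in DKO (SE, adjusted p = 0.0169), by 1.24 in KO (0.0161) and by 1.51 in TKO (0.00011). Of all genes, 5.35%, 1.16% and 19.3% were called higher in these comparisons, and 25.4%, 15.2% and 24.2% with the deposited scaling. The DKO and TKO libraries lay wholly above WT, while the KO library of set C (80.2) lay within the WT range. At 1 h the differences were 0.92 in DKO (adjusted p = 0.0465, 5.95% of all genes higher), 1.09 in KO (0.038, 1.84%) and 1.59 in TKO (6.41e-05, 15.8%), without overlap in any of the 3. With the deposited scaling those shares were 4.53, 1.37 and 8.64%. At 2 and 4 h no Ahr difference from WT was called, and in TKO it was 0.30 at 2 h and -0.42 at 4 h (adjusted p = 0.268).

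The TKO calls of Ahr at both times held when each library was left out, while the others were closer to the threshold. In DKO the 0 h call was lost without the WT library of set C (0.78, adjusted p = 0.11), and the 1 h call without any 1 of the 8 libraries (0.82 to 0.97, adjusted p 0.0547 to 0.104). The latter was also lost with the deposited (0.07), median-of-ratios (0.0571) and upper-quartile (0.0599) scaling, TMM without the 10 most abundant loci (0.0513) and voom (0.0636). In KO the 0 h call was lost without the WT library of set C (0.94, 0.137), the KO library of set A (1.11, 0.0863) or that of set B (0.89, 0.213). With only the groups compared, the 0 h calls of DKO and KO were lost (adjusted p = 0.0834 and 0.408), as they were with voom (0.0823 and 0.124). The KO call at 1 h was lost with the deposited scaling (0.0642), and without the WT library of set A, B or C (adjusted p of 0.0696, 0.0913 and 0.0988) or the KO library of set A, B or D (0.0985, 0.232 and 0.0572). It was also lost with median-of-ratios or upper-quartile scaling, with no filter on low values, and with only the groups compared in the fit. Its highest limma adjusted p over all alternatives was 0.405.

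Il17f was higher in KO than in WT cells by 2.06 ± 0.56 at 1 h (SE, adjusted p = 0.031, 1.84% of all genes called higher), by 2.09 at 2 h (0.015, 4.68%) and by 2.26 at 4 h (0.00243, 21.8%). At 4 h the median of all genes was itself shifted by 0.222 in this comparison, and by 0.198 in TKO minus WT. With the deposited scaling 2.39% of genes were called higher at 2 h and 3.6% at 4 h. The KO and WT ranges were apart at all 3 times, 126.2 to 480.5 against 37.2 to 102.7 at 4 h. In TKO the call at 1 h was 1.99 (adjusted p = 0.00527, 15.8%), and the differences at 2 and 4 h were 0.96 (0.18) and 1.11 (0.101). In DKO they were 0.99 at 1 h (0.279), -0.07 at 2 h and -0.24 at 4 h. The KO call at 4 h held with each library left out. That at 2 h was lost without the WT library of set B (1.85, adjusted p = 0.0678) or the KO library of set D, which held 1308.2 scaled reads (1.53, 0.124). That at 1 h was lost without the WT library of set A, B or C (0.0989, 0.142 and 0.0592) or the KO library of set B, C or D (0.0537, 0.0773 and 0.129). With voom the 1 h calls were lost in KO (adjusted p = 0.427) and TKO (0.178), and with only the groups compared in the fit the KO call at 2 h was lost (0.151). The TKO value at 2 h was called without the TKO library of set C, the lowest of the 4 (1.53, adjusted p = 0.0322).

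Rora was higher in TKO than in WT cells by 1.27 ± 0.41 at 1 h (SE, adjusted p = 0.0155) and by 1.70 at 2 h (0.000958), where 20.1% of all genes were called higher (15.8% with the deposited scaling). Within the sets the 2 h difference was 1.64 to 1.89, and set D stood high in both genotypes. The 1 h call was lost without the WT library of set C (1.10, adjusted p = 0.0524) or the TKO library of set D (1.09, 0.0588). The differences at 2 h were 1.26 in KO (0.0556) and 1.05 in DKO (0.0977), and both were called without the WT library of set D (1.65, 0.0136, and 1.44, 0.0262). At 4 h TKO stood 0.72 above WT (0.152), with ranges that did not overlap.

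Il17a was not called against WT in any of 12 tests. Its largest values were 1.31 in KO at 2 h (adjusted p = 0.197), 1.28 in DKO at 2 h (0.186) and 1.14 in KO at 4 h (0.131). The last was called, at an adjusted p that rounds to 0.05, without the KO library of set B (1.61) and fell to 0.35 without that of set C, which held 127.2 scaled reads. Il23r was not called either. By limma, 2 of the 12 Il17a tests and none of the 12 Il23r tests had an unadjusted p under 0.05.

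**Figure D3:**
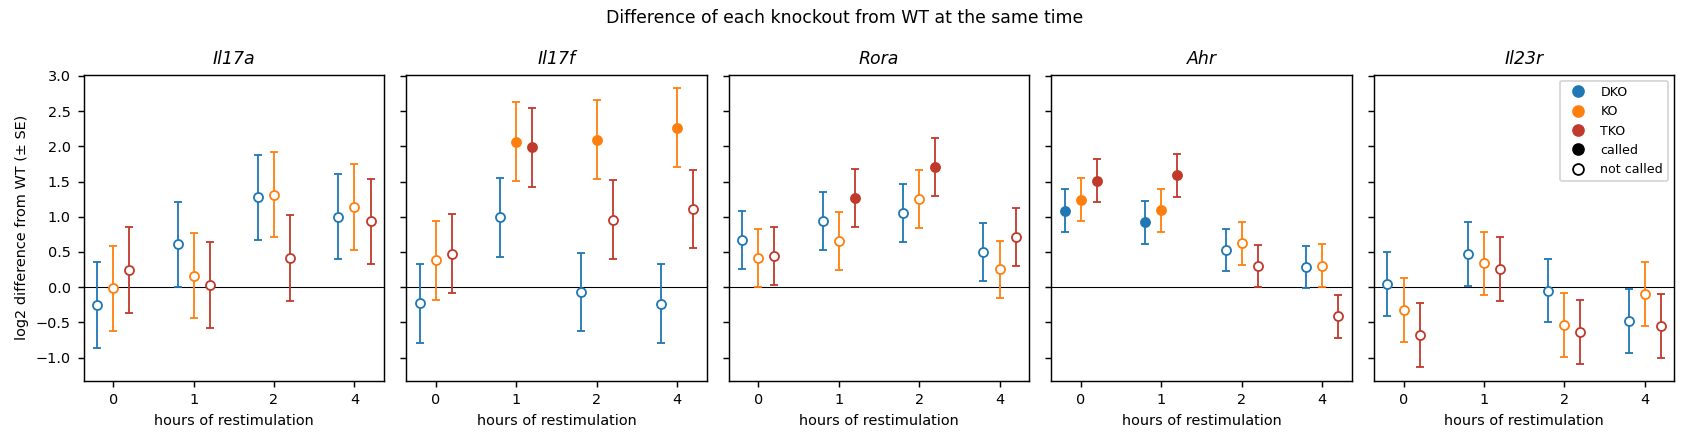
Log2 difference from WT at the same hour for each gene, with its SE, by genotype and hour of restimulation; filled points are called (limma adjusted p under 0.05). The Ahr points are highest at 0 and 1 h and end at -0.42 in TKO at 4 h, while the Il17f points of KO stay near 2 from 1 h to 4 h (2.06, 2.09 and 2.26).

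Loss of Regnase-1 and loss of both Roquins were also set against each other. Il17f was lower in DKO than in KO cells by 2.16 on the log2 scale at 2 h (-2.16 ± 0.56, SE, adjusted p = 0.0207, 1.34% of all genes called lower) and at 4 h (-2.50, 0.00563, 2.60%). With the deposited scaling 0.589% of genes were called lower at 4 h. The ranges were apart at both times, 22.7 to 75.6 against 126.2 to 480.5 at 4 h. The 2 h call was lost without the DKO library of set A (-1.89, adjusted p = 0.0995), B (-2.10, 0.0511) or C (-2.05, 0.064), or the KO library of set D (-1.60, 0.156), and the 4 h call held without each of the 8. With only the groups compared in the fit, both were lost (adjusted p = 0.254 and 0.0649). The other 18 tests between these genotypes were not called, with 0.353 and 0.533% of all genes lower at 0 and 1 h. In TKO no member was called against DKO or against KO in 20 tests each, and 3 of each 20 had an unadjusted p under 0.05 (limma). Of all genes, 14.8, 4.11, 6.77 and 12.4% were called in either direction against DKO at the 4 times, and 20.3, 9.63, 11.5 and 2.61% against KO. The nearest were Il17f in TKO minus DKO at 4 h (1.35, adjusted p = 0.101) and in TKO minus KO at 2 h (-1.13, 0.185). The latter was called without the TKO library of set D (-1.80, 0.0274).

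The response to restimulation itself differed from that of WT in 1 of 45 tests. Over all genes such calls, in either direction, made up 0.105, 0.316 and 0.824% for the DKO response to 1, 2 and 4 h, 0.0248, 0.204 and 2.19% for KO, and 0.737, 4.55 and 6.64% for TKO. Genes called lower alone made up, with the deposited scaling, 2.54, 4.54 and 5.2% for DKO, 0.88, 1.9 and 5.88% for KO, and 13.7, 6.6 and 7.45% for TKO. From 0 to 4 h Ahr rose by 3.30 in WT and by 1.38 in TKO, and the difference between these responses was -1.93 ± 0.43 (SE, adjusted p = 0.00233, 1.86% of all genes called lower, 7.45% with the deposited scaling). It held with each of the 16 libraries left out (-2.13 to -1.62). From 0 to 2 h it was -1.21 (adjusted p = 0.0969). Of the other tests, 6 more had an unadjusted p under 0.05. Whether the TKO value departed from the sum of the DKO and KO differences was asked in 20 tests, of which none was called and 2 had an unadjusted p under 0.05 (limma), while 0.731, 0.260, 0.155 and 0.167% of all genes were called at the 4 times. The 2 were Il17a at 2 h, at -2.18 ± 0.86 (adjusted p = 0.522), and Ahr at 4 h, at -1.01 (0.577). With the deposited scaling 11.1% of all genes were called lower in this test at 0 h, Ahr among them (-1.29, adjusted p = 0.0435, against -0.82 and 0.444 here).

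Members varied with the library sets in different ways. Rora was highest in set D in 16 of 16 groups, on average 0.769 above the group mean on the log2 scale, and Il17f in 14 of 16 (0.944). Il17a was highest in set C in 9 of 16 groups, none of them TKO, and was lowest on average in set A (-0.422). Il23r was highest in set D in 8 groups and in set C in 5, including all 4 KO groups, and Ahr in set C in 7 and in set A in 5. After the group means were taken out, Rora and Il17f deviated together over the 64 libraries (r = 0.746), as did Il17f with Il23r (0.549) and Il17a with Il23r (0.526), while Il17a and Il17f did so little (0.169). Over the 16 group means, by contrast, the pair Il17a and Il17f had r = 0.950, and Il17f and Ahr had 0.885. These points share libraries and depth, and the coefficients are descriptions.

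Markers moved with the same sets. Of the Th17-related genes, Il1r1 and Il22 were each highest in set D in 11 of 16 groups and Ccr6 in 9. The summed level of 4 Th1 genes was also highest in set D, in 14 of 16 groups (1920 to 50000 scaled reads against 1280 to 38500 in the other sets). Of these genes, Ifng alone was highest there in 13 groups and Tbx21 in 7, with 5 in set B. Also highest in set D were the innate lymphoid and natural killer genes, summed, in 12 of 16 (309 to 3310 against 200 to 2340). The γδ T cell genes, of which 5 of 7 were in the table, were highest in set C in 12 of 16 groups. In KO cells they ran from 14.7 to 50.5 in set C and from 4.18 to 30.6 in the other sets, and set C was the highest in 2 of the 4 KO groups. Of these, Tcrg-C1 reached at most 17.2 and Tcrg-C2 at most 24.6 in any library, and Trdc was not in the table. The B cell genes were highest in set C in 13 of 16 groups (164 to 4070 against 84.1 to 3710) and the CD8 T cell genes in set A in 14 of 16 (59 to 411 against 27.4 to 221). The part of these cells in the members' values was not tested.

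**Figure D4:**
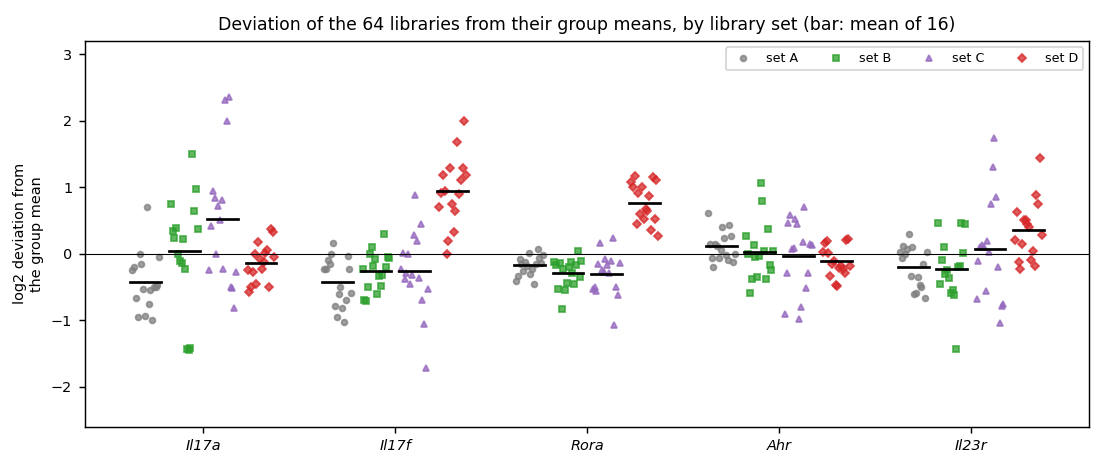
Deviation of each library from its group mean (log2 of scaled reads plus 1) for each gene, 1 point per group and library, coloured by library set A to D, with a bar at the mean of the 16 groups. Rora in set D lies above 0 in 16 of 16 groups and Il17f in 15 of 16, whereas Il17a has its highest points in set C of KO cells.

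The wider pathway was read from a list of 54 Th17-related genes other than the members, of which 48 were tested, 5 were under the filter and 1 was not in the table. In WT cells restimulation raised 23, 27 and 19 of the 48 at 1, 2 and 4 h, beside 18.7, 26.5 and 24.7% of all genes. It lowered 5, 8 and 12, counts that are a description only, since the share of all genes lowered is not given here. Against WT, the list had 11, 8, 5 and 5 genes higher and 0, 2, 1 and 1 lower in DKO at 0, 1, 2 and 4 h, with a median difference of 0.295, 0.27, 0.406 and 0.198 beside -0.0391, -0.0138, 0.0506 and 0.0722 for all genes. In KO it had 5, 6, 10 and 15 higher and 1, 0, 0 and 3 lower, with medians of 0.165, 0.122, 0.33 and 0.362 beside -0.0315, 0.00229, 0.0544 and 0.222. In TKO it had 16, 17, 17 and 17 higher and 3, 3, 5 and 8 lower, with medians of 0.506, 0.196, 0.308 and 0.287 beside 0.0735, 0.00403, 0.0346 and 0.198. These counts moved with the scaling. With the deposited one they were 22, 7, 4 and 3 higher and 0, 2, 1 and 1 lower in DKO, 13, 5, 5 and 5 higher and 1, 1, 1 and 5 lower in KO, and 20, 15, 17 and 12 higher and 3, 8, 7 and 10 lower in TKO. Of all genes, 7.96% in DKO at 2 h were called higher than WT, and at 4 h 4.68% in DKO and 27.4% in TKO, beside 0.675% and 16.5% lower. For the other comparisons no share of all genes called lower is set beside the list's lower counts, which are descriptions only.

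Among the 12 transcription factors and cofactors tested, 8 were higher than WT at 1 time or more in DKO, 6 in KO and 9 in TKO, beside 13.7, 23.1 and 39.4% of all genes, and Runx1 was lower in TKO at 4 h (-0.46, adjusted p = 0.0448). Batf, an AP-1 family factor that opens Th17 loci, was called in all 12 comparisons, from 0.82 ± 0.16 in DKO at 4 h to 2.74 in TKO at 1 h (SE, adjusted p = 1.73e-20). Stat3, which carries IL-6 and IL-23 signals, was called higher in 11 of 12, most in TKO at 1 h (1.24, adjusted p = 1.46e-11). Its 4 h calls were lost with the deposited scaling in KO (adjusted p = 0.61) and TKO (0.213), its KO call at 0 h without the WT library of set B (0.066) or D (0.0512) or the KO library of set B (0.069), and its KO call at 1 h without the KO library of set B (0.0501). Maf, a regulator of IL-10 and IL-21, was higher at 0 h in TKO (2.44, SE 0.65). Its 0 h calls in DKO (2.16) and KO (2.41) were each lost without any 1 of 6 libraries, the WT and knockout ones of sets A and B, the WT one of set C and the knockout one of set D (adjusted p of 0.05 to 0.0999 in DKO and 0.0759 to 0.158 in KO). Nfkbiz, which encodes the IκBζ cofactor of Il17a transcription, was higher at 0 h by 1.04 in DKO, 1.38 in KO and 1.91 in TKO (SE 0.21). Of the 11 factors that oppose the program, 5 were higher and 0 lower at 1 time or more in DKO, 3 and 0 in KO, and 5 and 2 in TKO. Of all genes, 4.72, 12.4 and 27.6% were lower at 1 time or more in DKO, KO and TKO. Gfi1, a repressor, was lower in TKO at 2 h (-1.76, adjusted p = 0.000939). It was higher in DKO at 0 h (1.65, 0.00838), a call lost without the DKO library of set D (0.0562).

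Of the 6 cytokine genes tested, Il22 was called in TKO and in no other comparison with WT: 3.45 ± 0.80 at 1 h, 3.6 at 2 h and 2.56 at 4 h. Without its TKO libraries Il22 would not have passed the filter on low values, so these calls are a description and not support. Its mean at 2 h was 70.0 scaled reads in TKO against 3.45 in WT, 2.67 in DKO and 11.4 in KO. The 4 TKO libraries ranged from 10.3 to 202.4, the highest being that of set D. The 4 h call was lost without the TKO library of set D (1.87, adjusted p = 0.0666). Il10, an anti-inflammatory cytokine, was higher in TKO at all 4 times, most at 0 h (3.96 ± 0.59, adjusted p = 7.07e-07). Its call in KO at 4 h (1.46, 0.0484) was lost without the WT library of set A, B or C or the KO library of set A, B or D (0.062 to 0.125) and with the deposited scaling (0.178). Il21 was higher at 4 h in KO (2.76) and TKO (3.27, SE 0.60). Its DKO call at 4 h (2.31) was lost without the WT library of set B (adjusted p = 0.0544) or C (0.0804) or the DKO library of set D (0.102). As a limit on Il21, the opposite-strand gene Gm12534 overlaps it and held 8.39% as many reads. Csf2, which encodes GM-CSF, was lower at 1, 2 and 4 h in TKO (-2.07, -2.96 and -2.94). In DKO it was lower by -1.95, -2.28 and -1.90 at these times, calls that were lost without the WT library of set A or D or the DKO library of set A, B or C at 1 h (adjusted p of 0.0523 to 0.0879), without the DKO library of set A at 2 h (0.0589) and without any library but the DKO one of set C at 4 h (0.0522 to 0.194). The KO call at 4 h (-1.81, SE 0.58) was lost without the KO library of set A (0.0544) or B (0.0531). Its mean at 2 h was 7074 in WT and 1014 in TKO.

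Of the 10 receptors, 3 were called higher and 1 lower at 1 time or more in DKO, 2 and 2 in KO, and 5 and 4 in TKO, where 1 gene was called in both directions. Of all genes, 13.7% were called higher and 4.72% lower at 1 time or more in DKO, 23.1 and 12.4% in KO, and 39.4 and 27.6% in TKO. Il17ra, the IL-17 receptor subunit, was the 1 lower in DKO (-0.45 at 1 h) and was lower in TKO at all 4 times (-0.73 at 1 h). Ccr6, a chemokine receptor of Th17 cells, was higher in DKO at 1 h (2.35). Its DKO call at 0 h (1.86 ± 0.53) was lost without the WT library of set C (adjusted p = 0.0735) or the DKO library of set D (0.17), and its TKO call at 1 h (1.69) without the WT library of set B (0.0501). Il1r1, the IL-1 receptor, was higher in TKO at 2 h (2.67 ± 0.66, adjusted p = 0.00113) and 4 h (2.16). Socs3, an inhibitor of STAT3 signalling, was higher in TKO at 1 and 2 h (2.20 and 2.51). Its KO call at 2 h (2.07 ± 0.51) was lost without the KO library of set B (adjusted p = 0.055), and its TKO call at 4 h (1.52) without the TKO library of set A (0.0621), B (0.0534) or D (0.059). Tiparp, a target of the Ahr protein that in turn limits it, was higher at 2 h in KO (2.25 ± 0.39, adjusted p = 8.72e-05) and TKO (2.19). Ahrr, the AHR repressor, was lower at 4 h in KO (-1.27) and TKO (-1.25, SE 0.36).

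**Figure D5:**
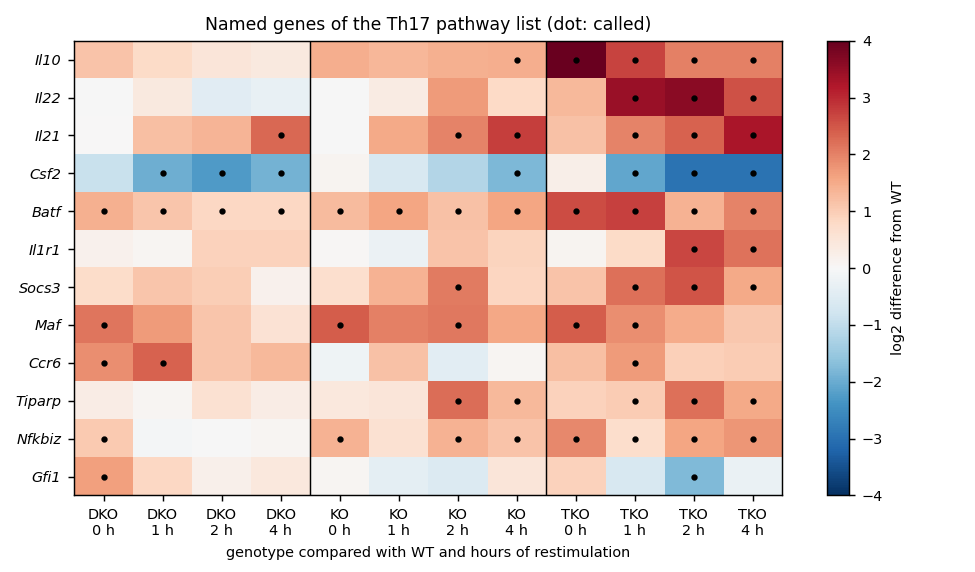
Log2 difference from WT at the same hour for 12 genes of the Th17 list, chosen as those with the largest called differences, by genotype and hour. A black dot marks a call (limma adjusted p under 0.05). The TKO columns hold most of the dark cells, up to 3.96 for Il10 at 0 h and down to -2.96 for Csf2 at 2 h.

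The genes whose 16 group means were most like a member's were Nmd3 (r = 0.984), Pam16 (0.984) and Slc7a6 (0.983) for Il17a, and Pwp1 (0.986), Btf3 (0.986) and Abcc1 (0.979) for Il17f. For Ahr they were Cd200 (0.966), Lag3 (0.959) and Ptger2 (0.956), for Rora Afap1 (0.904), Tes (0.897) and Grb2 (0.895), and for Il23r 1700006D18Rik (0.831), Tfap2a (0.817) and Rbks (0.806). Btf3 covered 0.94 on the log2 scale over the groups, so a like shape does not mean a like size. The tested gene on the other side of Il17a is Pkhd1, 112.8 kb away, and that beyond Il17f is Mcm3, 12.35 kb away. Neither followed the cytokines: Pkhd1 went from 153 to 79.6 scaled reads and Mcm3 from 1609 to 1535 in WT between 0 and 2 h.

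The authors' deposited table gives its own false discovery rate and log2 change for the same pairs. Over the 60 restimulation comparisons the table called 36 for these genes and limma 38, with 36 in both. Against WT it called 10 and limma 12, with 8 in both, and between knockouts 3 and 2, with 1 in both. All calls in both had the same sign. Rora in TKO minus WT at 4 h was called in the authors' deposited table (log2 change 0.529, false discovery rate 0.005), as was Ahr there (-0.526, 0.021), in TKO minus DKO at 1 h (0.621, 0.043) and at 4 h (-0.762, 0.017). Ahr at 0 h was not called in the authors' deposited table in DKO minus WT (false discovery rate 0.052) or KO minus WT (0.515), nor was Il17f in KO minus WT at 2 h (0.1). Nor were Ahr in KO minus WT at 1 h (0.111) and Il17f in DKO minus KO at 2 h (0.125). Against 0 h, Ahr in KO (0.32) and Il17a in TKO (0.301) at 1 h were not called there either.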

How the data were processed

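RNA-seq of 64 libraries (16 groups of 4) was analysed. The authors deposited, per gene and group, a list of 4 values in columns named counts, which are not whole numbers, with p-values as false discovery rates and log2 fold changes for pairs of groups, per the file headers. Reads were assigned to GRCm38, per the submitters' processing notes. Aligner, counter, annotation and strand setting: not given in the sources used here. Total RNA libraries were made with a NuGEN kit, per the labels' protocols.

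Low values were whole multiples of 1 step per library (100% whole within 0.1), so reads were recovered and scaled to the median depth with TMM factors (trims of 30 and 5%). Genes with 10 reads at the median depth (1.3 CPM) in at least 4 libraries and at least 15 in all were kept, 16140 of 23134. Log2(scaled reads + 1), a scale that understates changes of low genes, was fitted with limma 3.58.1 (R 4.3.3, trended and robust variances) on 16 group means with 48 residual degrees of freedom (median residual SD 0.328). Over 49 contrasts the members gave 245 tests. Each library's place in a list carries no replicate number in the labels. Annotation was GENCODE M21. Gene names, 3'UTRs and spans come from it, promoters from RefSeq. Of the members, 4 of 5 had a promoter entry.

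The members and lists were chosen with earlier results of these data known. The 12 pathway genes plotted were called in at least 2 of the 12 knockout comparisons with WT, with an absolute log2 difference of at least 1 in 1 of them, taken by size (22 met this). Stat3 and Ahrr were added after their values were seen. Some genes of the lists are not reported by name here. The 3 genes most alike per member are those with the highest Pearson r over the group means. On simulated data for TKO minus WT at 2 h over 16140 genes, 53 of 93 genes changed 2-fold and 84 of 98 changed 4-fold were called, all in the right direction, with 6 of 15185 unchanged genes. Alternatives covered scaling, filter, pseudocount, voom, groups entering the fit, library sets and each library left out. Depth sets the precision of the low genes: Il17a had 1116 and Il23r 872 reads over all libraries.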

Additional observations from a re-analysis of the deposited data

Results flagged for a closer look

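In 19 of 78 groups of 4 libraries tested, 1 library of a member lay farther from the other 3 than Dixon's 95% limit for a single far value. The limit flags about 1 in 20 groups of independent normal values, a rate that need not hold for read values. Where 3 of the 4 libraries held 0 and 1 did not, the flag was fixed in advance. In each flagged group it was the highest library that stood apart.

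For Rora the library was always that of set D: 531.5, 513.6 and 326.9 scaled reads in WT at 0, 1 and 4 h, 741.9 and 1301 in DKO at 1 and 2 h, and 537.5 and 626.4 in KO at 0 and 1 h. For Il17f set D also stood apart in WT at 4 h (102.7, others 37.2 to 47.2), DKO at 2 h (224.8, others 52.2 to 80.1) and KO at 2 h (1308, others 232.6 to 317.4). The single WT library with a read at 0 h (0.883) was likewise marked.

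For Il17a the set C library of KO stood apart at 1 h (54.7, others 3.22 to 9.35) and 4 h (127.2, others 8.36 to 25.1). The marks at 0 h, at 1.02 in WT, 0.943 in KO and 2.99 in TKO, rest on 1 to 3 reads. For Il23r the same KO library stood apart at 1 h (31.2) and 4 h (30.8), and the set D library in TKO at 0 h (17.7).

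Of 65 tests of a difference between responses or of additivity, 1 was called: the Ahr response from 0 to 4 h was smaller in TKO than in WT by -1.93 on the log2 scale.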

How the results depend on the processing

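Of the 53 called differences of the members, 36 were called under all alternatives in which the gene was tested. Another 17 were lost under at least 1, while 28 uncalled ones were gained somewhere. The filter of 10 CPM in 4 libraries left Il17a untested. Its calls thus rest on 23 alternatives each, against 24 for Il17f. None changed direction. Counts of calls for restimulation stayed within 1.5 times in each genotype under all alternatives. Against the 2 calls of DKO minus WT, 1 was made with the deposited, the median-of-ratios, the upper-quartile or the TMM scaling without the 10 most abundant loci, or with only the groups compared in the fit, and 0 with voom. Of the 5 of KO minus WT, 2 were made with only the groups compared and 3 with voom. With only the groups compared, TKO minus DKO had 2 calls and DKO minus KO 0. With the deposited scaling the differences in response had 3 calls and non-additivity 1. Without set A there were 0, 1, 3 and 0 calls for DKO, KO and TKO against WT and for DKO minus KO, and without set B 1, 1, 3 and 0. Without set C, DKO minus KO had 1. Without set D, TKO minus DKO had 1, TKO minus KO 2 and the differences in response 2. Leaving out sets, and an Xist covariate, was chosen after seeing the data. The set fits hold 3 libraries a group, and the cause of the other changes was not tested.

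With the library set as a replicate block (45 residual degrees of freedom), DKO minus WT had 6 calls, TKO minus WT 8, TKO minus DKO 3, TKO minus KO 3 and the differences in response 3. Among those gained, Rora had adjusted p = 0.000754 and 0.00018 in DKO minus WT at 1 and 2 h and 1.33e-05 in KO minus WT at 2 h (limma). The sets are a hint from the data, not the design, since the deposited lists carry no replicate numbers.

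With 1 library left out at a time, the calls ranged from 9 to 9 in WT and DKO, 9 to 10 in KO and 10 to 11 in TKO for restimulation, 1 to 3, 3 to 6 and 4 to 6 for DKO, KO and TKO against WT, 0 to 0 for TKO minus DKO, 0 to 1 for TKO minus KO, 1 to 2 for DKO minus KO, 1 to 1 for response and 0 to 0 for non-additivity. Of 76 called differences of the 14 pathway genes followed (the 12 plotted, Stat3 and Ahrr), 40 were called in every fit that tested the gene. A count-model fit was planned only for deposited raw counts, and it was not run because the deposited values are normalized. The reads recovered from them entered the voom fit.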
